A study of Mus musculus with 2 samples.

Results

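Progesterone synthesis in the mouse ovary was followed through 7 genes, Scarb1, Star, Cyp11a1, Fdx1, Fdxr, Hsd3b1 and Mgarp, out of 29373 gene symbols in the deposited counts. They were taken by name for their known place in the pathway, and all 7 had counts in both libraries. Single ovarian cells came from 2 libraries of female ICR mice, an outbred stock, and ovaries from different mice were pooled. In the PS-MP library the mice had swallowed polystyrene microplastic particles of 0.1 µm by gavage, 1 mg in 100 µL each day. In the control library they had received ddH2O, although its treatment label reads WT. Both groups were gavaged from 3 weeks of age for 35 days and were 8 weeks old at collection. The labels state n = 16 without saying whether this holds per group, and the other doses and particle sizes of the study were not analysed here. With 1 library per group and no map from cells to mice, no test of the exposure was possible. Every interval below is a 95% interval for counting error alone, and every difference compares 2 libraries.

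The 7 genes cover the route from cholesterol to progesterone. Scarb1 encodes a receptor that takes up cholesteryl ester from high-density lipoprotein. Star moves cholesterol to the inner mitochondrial membrane, where the side-chain cleavage enzyme Cyp11a1 turns it into pregnenolone. Cyp11a1 runs on electrons that ferredoxin reductase (Fdxr) takes from NADPH and ferredoxin (Fdx1) carries to it. Hsd3b1 turns pregnenolone into progesterone, and Mgarp encodes a mitochondrial protein known from steroid-making tissues. In the ovary the pathway is known from luteal cells, which secrete progesterone, and from theca cells, which pass their steroids on to androgen synthesis. Granulosa cells of growing follicles mostly make oestrogen from androgen, and take up progesterone synthesis around ovulation.

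The promoters of Cyp11a1 and of both electron carriers are printed because these 3 genes encode the parts that work together in side-chain cleavage. Each window holds the 250 bases before the annotated start, read 5′ to 3′ on the gene's own strand, from RefSeq on GRCm38.p6. They lie at chr9:58014702-58014951 (plus strand) for Cyp11a1, chr9:51963603-51963852 (minus strand) for Fdx1 and chr11:115276970-115277219 (minus strand) for Fdxr. Capitals mark AGGTCA, the core of the sites that nuclear receptors of the Nr5a family are known to bind, searched on both strands.
Cyp11a1: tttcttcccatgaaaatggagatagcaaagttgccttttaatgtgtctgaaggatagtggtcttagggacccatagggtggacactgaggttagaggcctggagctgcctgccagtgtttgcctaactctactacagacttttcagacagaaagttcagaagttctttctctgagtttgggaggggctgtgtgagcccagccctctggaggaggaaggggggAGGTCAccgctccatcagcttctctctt
Fdx1: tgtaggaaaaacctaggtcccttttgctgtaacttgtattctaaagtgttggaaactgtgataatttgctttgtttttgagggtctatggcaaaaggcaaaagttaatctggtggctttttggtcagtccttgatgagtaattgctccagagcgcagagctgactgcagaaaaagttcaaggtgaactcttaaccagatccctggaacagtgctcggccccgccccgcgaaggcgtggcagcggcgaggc
Fdxr: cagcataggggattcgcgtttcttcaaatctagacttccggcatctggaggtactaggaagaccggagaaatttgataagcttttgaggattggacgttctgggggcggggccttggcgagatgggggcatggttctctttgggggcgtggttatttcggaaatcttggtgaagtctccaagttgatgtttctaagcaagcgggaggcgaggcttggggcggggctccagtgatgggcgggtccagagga
The motif AGGTCA occurred once in the Cyp11a1 window, 28 bases before the start, and 0 times in the windows of Fdx1, Fdxr, Hsd3b1 and Mgarp. Of 32851 windows of the same length, 4607 (14%) held it on either strand. The longer motif CAAGGTCA, which contains AGGTCA, was in none of these 5 windows and in 1.33% of all windows. The table lists 2 windows for Cyp11a1, and the one printed starts nearest to, though 281 bases from, the first transcript of GENCODE vM21. Star and Scarb1 were not in the table. A match of letters is a description and not a binding site.

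The deposited files held 15056 PS-MP cells with 145474989 UMI counts (counted molecules) and 15373 control cells with 160257194. After filtering, 14412 PS-MP cells with a median of 8643 UMI counts and 14538 control cells with a median of 9502.5 remained, and the libraries shared 3 cell barcodes. Cells were grouped without any of the 7 genes into 15 clusters, which were named from markers. Luteal-like cluster 5 held 1929 PS-MP cells and 8 control cells. A cluster that comes almost wholly from 1 library may reflect that library, so its own levels are not compared between PS-MP and control, and sums over all cells are given with and without it. Luteal-like cluster 10 held 129 PS-MP and 229 control cells. Theca-like cells numbered 593 and 607, stromal fibroblast-like cells 1724 and 1916, and granulosa-like cells, in 5 clusters, 9204 and 10358. All 8 luteal markers reached 20 CPM in both luteal-like clusters. Cluster 10 was led by Akr1c18 (2467 CPM in PS-MP and 3258 CPM in control) and Ptgfr (1571 and 1131 CPM), where CPM are UMI counts scaled to an equal total in every cell group. Cluster 5, led by Xpnpep2, Edn2 and Slc12a8 with 0 of the luteal markers among its top 10 genes, had 87.9 CPM of Akr1c18 and 75.5 CPM of Ptgfr in PS-MP cells, beside 1235 CPM of Lhcgr, the receptor of luteinizing hormone, and 1865 CPM of Prlr, the prolactin receptor. It also kept the granulosa marker Inha at 1431 CPM, with Cyp19a1 at 2.82 CPM. The theca-like cells carried 2116 CPM (PS-MP) and 2845 CPM (control) of Cyp17a1, whereas the theca marker Insl3 was almost absent at 0.554 and 0.158 CPM.

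All 7 genes were highest in luteal-like or theca-like cells, but their order among these cells differed from gene to gene. The values below are levels in CPM, to be read across cell groups for 1 gene at a time, since UMI counts were not divided by gene length. Fewer molecules per cell and a smaller share of a cell's RNA cannot be told apart on this scale.

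Scarb1, the lipoprotein receptor, had 2693 CPM (2618 to 2770) in luteal-like cluster 10 of the PS-MP library and 2468 CPM (2419 to 2517) in the same cluster of the control library. Cluster 5 of the PS-MP library came next with 1334 CPM (1319 to 1350). Theca-like cells had 711 CPM (688 to 734) in PS-MP and 783 CPM (762 to 805) in control. Scarb1 also had a level outside the steroid-making cells. Blood endothelial-like cells had 533 CPM (502 to 566) in PS-MP and 524 CPM (497 to 551) in control, intervals that overlap. Stromal cells (285 and 283 CPM) and granulosa-like cells (251 and 234 CPM) were lower, and macrophage or monocyte-like cells had 92.6 and 73.8 CPM.

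Star, the cholesterol carrier of the mitochondrion, was low in most other cell groups. Cluster 10 carried 2096 CPM (2030 to 2164) in the PS-MP library and 2584 CPM (2535 to 2635) in the control library. Theca-like cells followed with 908 CPM (883 to 934) in PS-MP and 870 CPM (848 to 894) in control. Cluster 5 stood lower again, at 303 CPM (296 to 310) in PS-MP cells, although it had the other genes of the pathway in plenty. Stromal cells had 50.6 CPM in PS-MP and 27.8 CPM in control. The few surface epithelium-like cells, 12 in PS-MP and 20 in control, had 390 CPM (280 to 530) and 455 CPM (351 to 581) of Star. The PS-MP interval holds the level of cluster 5, and these cells stood under the limit of 50 cells set for comparisons. Granulosa-like cells had 8.70 CPM (8.10 to 9.34) in PS-MP and 7.39 CPM (6.90 to 7.92) in control, no more than the 9.88 CPM (6.33 to 14.7) and 12.5 CPM (9.86 to 15.6) of macrophage or monocyte-like cells. Thinned to 3500 UMI counts a cell, 50.5% of cluster 5 cells held a Star UMI, against 72.3% before thinning. In theca-like cells the thinned share was 65.1% in PS-MP and 49.6% in control (75.4% and 60.3% before thinning). In macrophage or monocyte-like cells, which serve as background, it was 4.25% and 2.95%. Among single theca-like cells the median Star level was 420 CPM in PS-MP and 167 CPM in control, while the summed levels of the class were close, so Star was spread over more of the PS-MP cells.

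Cyp11a1, which cleaves the cholesterol side chain, was highest in cluster 10 with 11116 CPM (10963 to 11272) in PS-MP and 9885 CPM (9787 to 9984) in control. Cluster 5 had 6967 CPM (6932 to 7002) in PS-MP cells. Theca-like cells had 5237 CPM (5176 to 5298) in PS-MP and 5843 CPM (5783 to 5902) in control. These steps did not overlap in their counting intervals. Every other cell group with at least 50 cells in both libraries had at most 235 CPM, and granulosa-like cells (105 and 73.4 CPM) did not exceed macrophage or monocyte-like cells (182 and 78.1 CPM).

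Fdx1, the ferredoxin that hands electrons to Cyp11a1, had another order. It was highest in cluster 5, at 5971 CPM (5938 to 6004) in PS-MP cells. Cluster 10 had 3970 CPM (3878 to 4063) in PS-MP and 4033 CPM (3970 to 4096) in control, intervals that overlap. Theca-like cells had 2244 CPM (2204 to 2284) in PS-MP and 2386 CPM (2348 to 2424) in control. The 2 luteal-like clusters thus stood in the opposite order for Fdx1 and for Cyp11a1. Granulosa-like cells had 184 and 157 CPM, and stromal cells 223 and 144 CPM.

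Fdxr, the reductase at the head of the electron chain, was nearly level across the steroid-making groups. It had 719 CPM (680 to 759) in PS-MP and 801 CPM (773 to 829) in control cells of cluster 10, and 735 CPM (724 to 747) in PS-MP cells of cluster 5. Theca-like cells had 767 CPM (744 to 791) in PS-MP and 667 CPM (647 to 688) in control. In the PS-MP library the intervals of both luteal-like clusters overlapped, and those of cluster 10 and theca-like cells did too. Granulosa-like cells had 171 and 129 CPM of Fdxr, more than the 51.9 and 27.6 CPM of macrophage or monocyte-like cells.

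Hsd3b1, the enzyme that completes progesterone, was highest in theca-like cells, with 8410 CPM (8333 to 8488) in PS-MP and 7865 CPM (7796 to 7934) in control. Cluster 10 had 6083 CPM (5969 to 6198) in PS-MP and 5595 CPM (5521 to 5669) in control, and cluster 5 had 3012 CPM (2989 to 3035) in PS-MP cells. Hsd3b1 also had the plainest granulosa signal. Granulosa-like cells carried 1517 CPM (1509 to 1526) in PS-MP and 1410 CPM (1403 to 1417) in control, 6.75 and 11.2 times the level of macrophage or monocyte-like cells. Within them it was highest in cluster 1, the cells led by Inhba and Cyp19a1, with 3470 CPM in PS-MP and 4016 CPM in control. Cluster 8, led by Car4 and Omg, was lowest with 257 and 156 CPM.

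Mgarp, the mitochondrial protein of steroid-making tissue, was highest in cluster 5, at 1800 CPM (1783 to 1818) in PS-MP cells. Theca-like cells had 1279 CPM (1249 to 1310) in PS-MP and 1089 CPM (1063 to 1115) in control. Cluster 10 was lower, with 438 CPM (408 to 470) in PS-MP and 636 CPM (611 to 661) in control. Mgarp thereby ran against Star, which was lowest of these groups in cluster 5 and highest in cluster 10. Granulosa-like cells had 165 and 152 CPM of Mgarp and stromal cells 36.3 and 17.0 CPM. With every cell thinned to 3500 UMI counts, all 7 genes were found together in 38.4% of PS-MP and 29.5% of control theca-like cells, against 8 PS-MP and 3 control stromal cells.

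**Figure D1:**
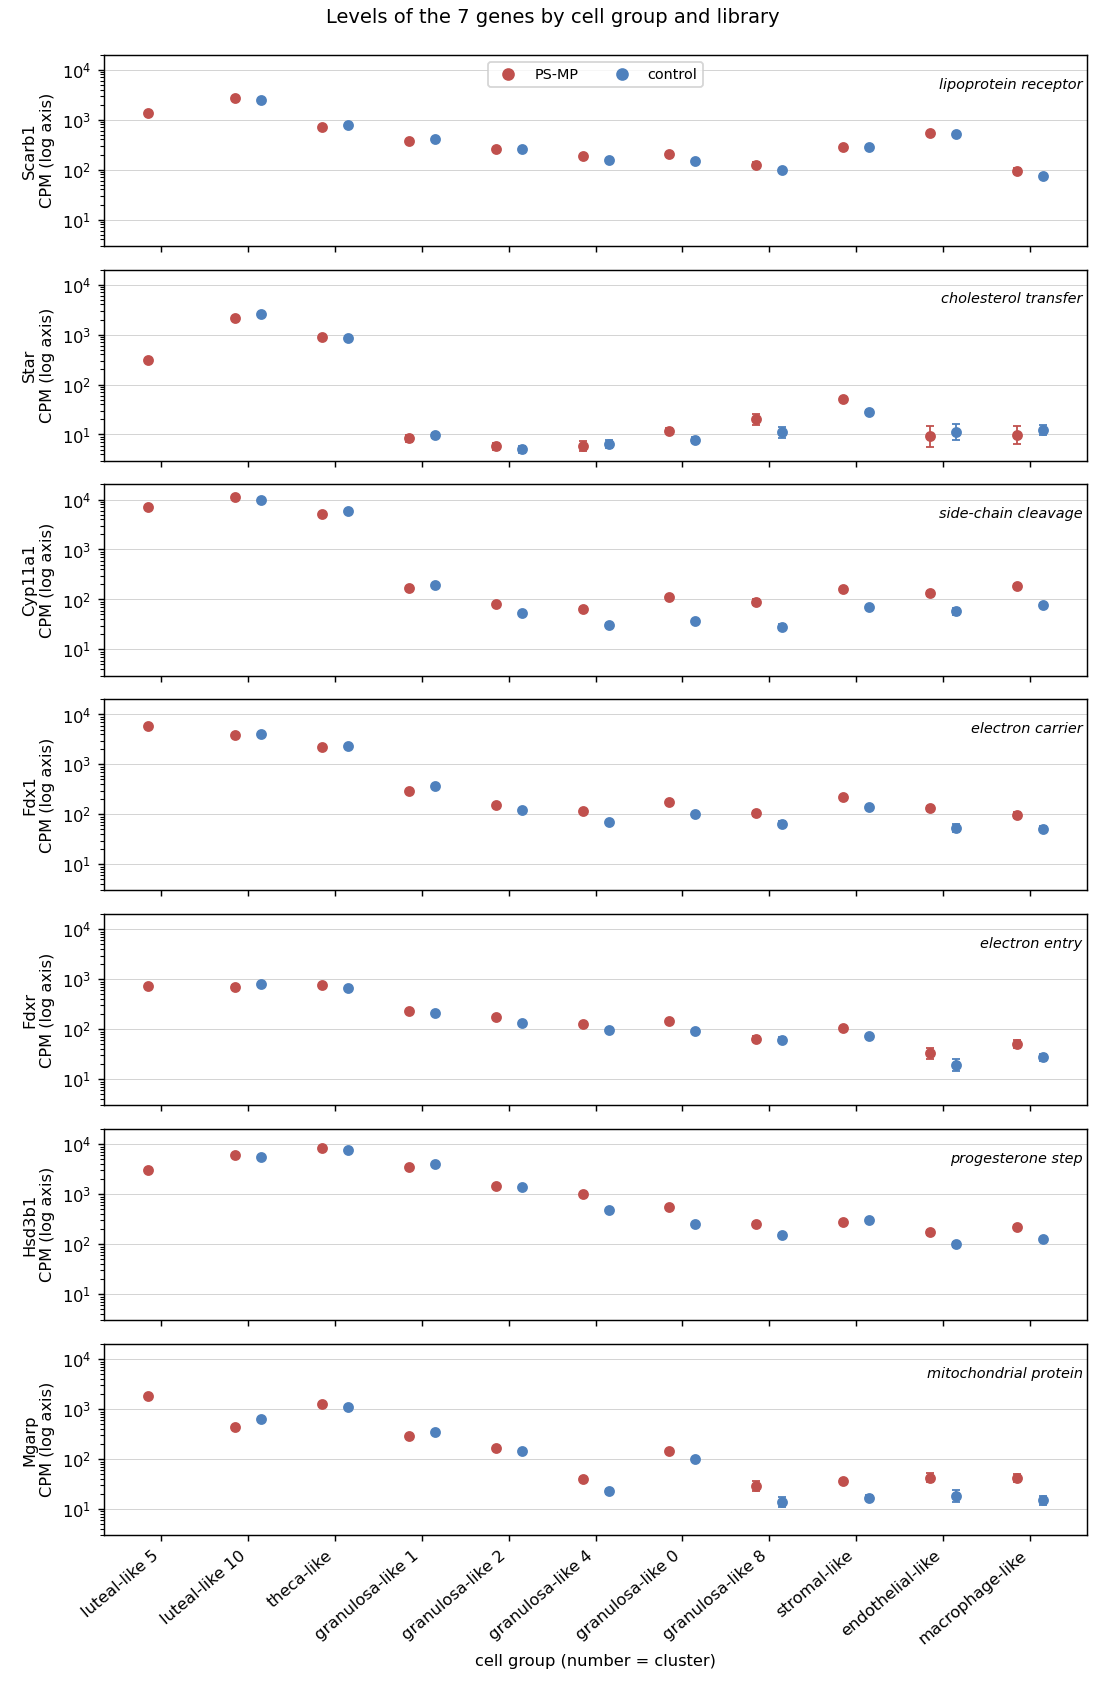
Level of each of the 7 genes in CPM (log axis) by cell group, with the PS-MP library in red at the left of each pair and the control library in blue at the right; bars are exact Poisson 95% intervals for counting error. Star and Cyp11a1 were highest in luteal-like cluster 10 (Star 2096 CPM in PS-MP and 2584 CPM in control), Fdx1 and Mgarp in luteal-like cluster 5, and Hsd3b1 in theca-like cells.

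Where the molecules of each gene lay differed between the libraries because cluster 5 was in the PS-MP library. With 13.4% of its cells and 15.5% of its UMI counts, cluster 5 held 76.5% of the Fdx1, 71.2% of the Cyp11a1 and 62.6% of the Mgarp molecules of the PS-MP library. Its share was smaller for Scarb1 (44.0%), Fdxr (41.4%), Star (38.8%) and Hsd3b1 (24.8%). In the control library Cyp11a1 was divided between cluster 10 (44.8%) and theca-like cells (42.6%), and Star was 58.9% in cluster 10 and 31.9% in theca-like cells. Granulosa-like cells, which are most of the cells, held 51.7% of the Hsd3b1 molecules in PS-MP and 66.4% in control. For Fdxr their share was 39.7% in PS-MP and 61.1% in control, and for Mgarp 23.8% and 62.5%.

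**Figure D2:**
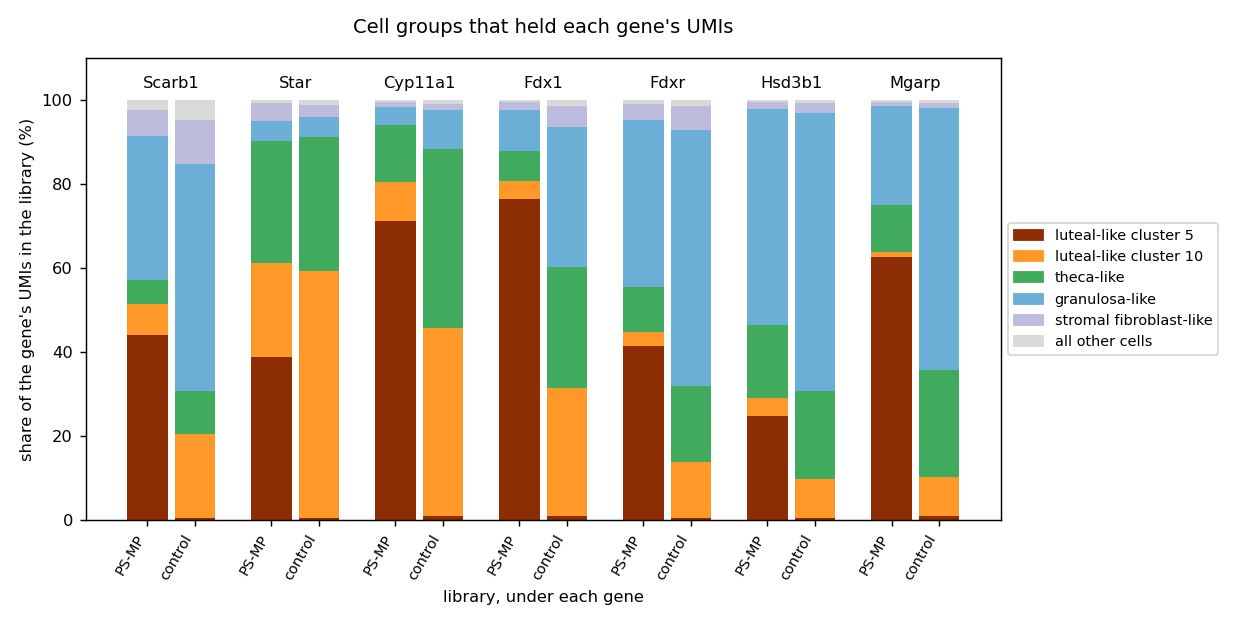
Percent of each gene's UMI counts found in luteal-like cluster 5, luteal-like cluster 10, theca-like, granulosa-like, stromal fibroblast-like and all other cells, as stacked bars that add to 100% for each gene and library. Cluster 5 fills most of the Fdx1 (76.5%) and Cyp11a1 (71.2%) bars of the PS-MP library, while granulosa-like cells hold most of the Hsd3b1 bar in both (51.7% in PS-MP and 66.4% in control).

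The balance of the genes was compared across cell groups as the number of molecules of 1 gene for every 100 of another. Fdx1 reached 85.7 (85.1 to 86.3) for every 100 Cyp11a1 molecules in cluster 5 of PS-MP. It reached 35.7 (34.8 to 36.7) in cluster 10 of PS-MP and 40.8 (40.1 to 41.6) in cluster 10 of control. Theca-like cells had 42.9 in PS-MP and 40.8 in control, so cluster 5 was the group set apart. Fdxr, itself nearly level across these groups, had 12.3 molecules for every 100 of Fdx1 in cluster 5, 18.1 (PS-MP) and 19.9 (control) in cluster 10, and 34.2 (PS-MP) and 28.0 (control) in theca-like cells. Star was scarce beside Cyp11a1 in cluster 5, with 4.35 (4.24 to 4.46) for every 100. Cluster 10 had 18.9 (18.2 to 19.5) in PS-MP and 26.1 (25.6 to 26.7) in control, and theca-like cells had 17.3 and 14.9.

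**Figure D3:**
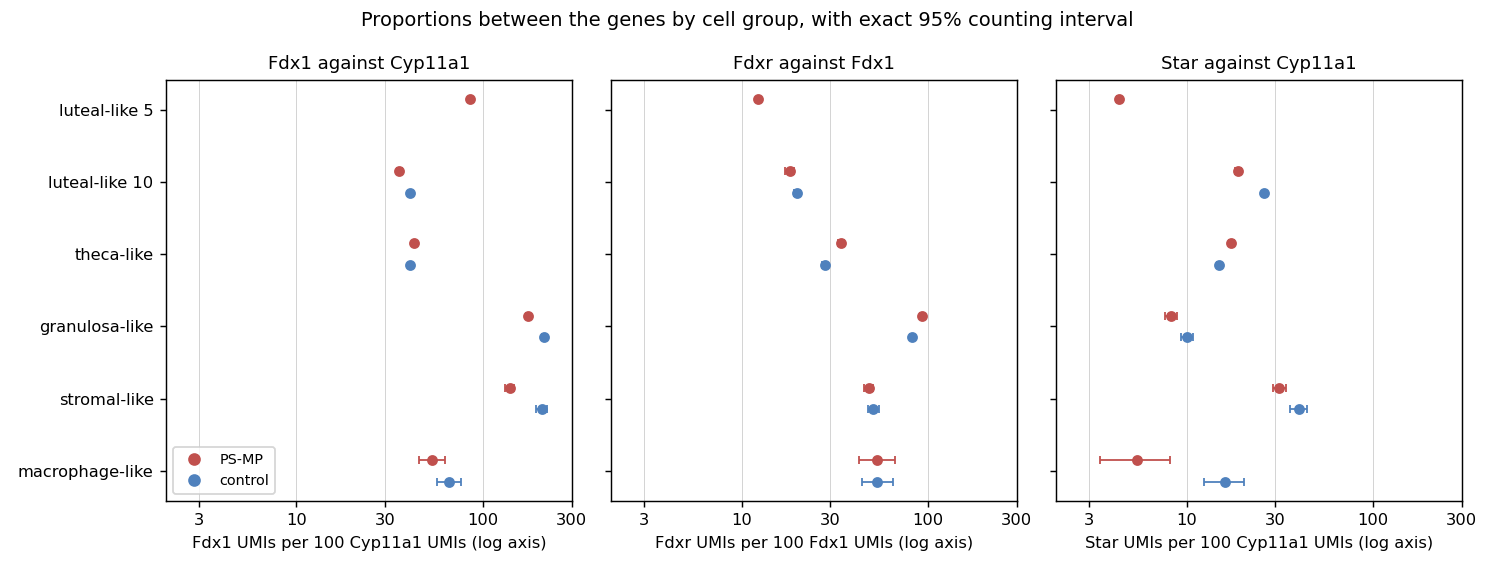
Molecules of 1 gene for every 100 of its partner (Fdx1 to Cyp11a1, Fdxr to Fdx1 and Star to Cyp11a1) by cell group and library, with exact 95% intervals for counting error. Luteal-like cluster 5 has 85.7 Fdx1 for every 100 Cyp11a1, above luteal-like cluster 10 (35.7 in PS-MP and 40.8 in control), and the fewest Star molecules for every 100 Cyp11a1 among luteal-like and theca-like cells (4.35).

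Cluster 10 was not uniform for the last enzyme of the pathway. It was divided at 1000 CPM of Hsd3b1 per cell, a limit chosen after the values were seen and a range rather than a cell type. Below it lay 26 of 129 PS-MP cells (20.2%, 13.6 to 28.1) and 73 of 229 control cells (31.9%, 25.9 to 38.3), and 12 PS-MP and 17 control cells were between 500 and 2000 CPM. The cells with little Hsd3b1 carried much more Akr1c18, the enzyme that inactivates progesterone. In PS-MP cells Akr1c18 was 7693 CPM below the limit and 1006 CPM at or above it, and in control cells 8531 and 942 CPM. Lhcgr was lower below the limit, at 239 against 1123 CPM in PS-MP and 83.9 against 2131 CPM in control. Mgarp was lower there too, at 104 against 531 CPM in PS-MP and 44.0 against 896 CPM in control. The earlier steps showed no direction common to all. Cyp11a1 was 11429 against 11029 CPM in PS-MP and 8151 against 10646 CPM in control, and Fdxr was 718 against 719 CPM in PS-MP and 799 against 801 CPM in control. Star was higher below the limit, at 3642 against 1664 CPM in PS-MP and 3119 against 2350 CPM in control. Fdx1 differed in opposite directions, with 5103 against 3654 CPM in PS-MP and 2921 against 4521 CPM in control. Scarb1 was 2548 against 2734 CPM in PS-MP and 1587 against 2854 CPM in control. The directions of Akr1c18, Lhcgr and Mgarp were the same with limits of 500 and 2000 CPM.

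**Figure D4:**
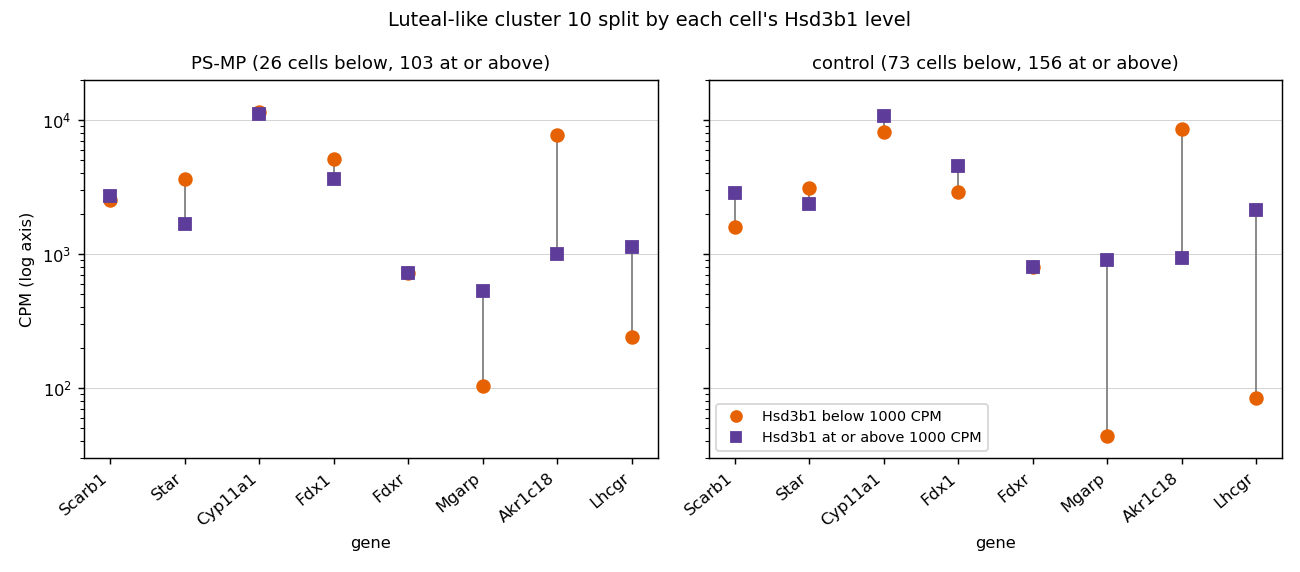
Levels in CPM (log axis) of 8 genes in cells of luteal-like cluster 10 that lay below or at and above 1000 CPM of Hsd3b1, with the PS-MP library in the left panel and the control library in the right. Akr1c18 is higher in cells below the limit (7693 against 1006 CPM in PS-MP, 8531 against 942 CPM in control), Lhcgr and Mgarp are lower, and Fdxr lies close together in both libraries (718 against 719 CPM in PS-MP, 799 against 801 CPM in control).

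The comparison of PS-MP with control asked whether exposure to the particles went with other levels of these genes inside a given cell group. A gene was counted as higher or lower at a fold of 1.2, when it had at least 20 CPM in a library. The same count over all genes is given as the background. Summed over all cells, 6 of 7 genes were higher in PS-MP, where 5.74% of all genes were, and 0 were lower, where 8.25% were. Fdx1 had a ratio of 3.53, Cyp11a1 2.66 and Mgarp 2.52. Without cluster 5 these became 0.992, 0.916 and 1.13, with 1 gene higher (Fdxr, 1.25; background 1.10%) and 1 lower (Star, 0.775; background 4.56%). Apart from Fdxr, the higher sums over all cells were not seen without cluster 5.

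Summed over luteal-like cluster 10, and over theca-like cells, most genes of the pathway were close to level. The sum over cluster 10 hid different directions in the split by Hsd3b1 described above. Star, Fdx1, Mgarp and Scarb1 were higher in PS-MP below that limit and lower in PS-MP at or above it. Cyp11a1 was higher in PS-MP on both sides and Fdxr lower on both, and the share of cells below the limit also differed between the libraries. In cluster 10, 0 of 7 genes were higher (background 18.4%) and 2 were lower (background 23.1%), a share near that of all genes. These were Star, with a ratio of 0.811 (0.781 to 0.842), and Mgarp, with 0.689 (0.635 to 0.746). The other ratios ran from 0.898 for Fdxr to 1.12 for Cyp11a1, and median UMI counts per cell in cluster 10 were 12676 in PS-MP and 15808 in control. In theca-like cells 0 of 7 genes were higher (background 7.31%) and 0 lower (background 12.0%). Their theca-like ratios ran from 0.896 (0.883 to 0.910) for Cyp11a1 to 1.17 (1.14 to 1.21) for Mgarp. These intervals leave out a change of 1.5-fold in either direction for each gene as far as counting goes, but not for differences between mice.

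In granulosa-like cells as a whole, 2 of 6 measured genes were higher (background 1.36%) and 0 lower (background 4.23%). Star was under 20 CPM in both libraries. Cyp11a1 had a ratio of 1.44 (1.39 to 1.48) and Fdxr one of 1.33 (1.30 to 1.36). Fdx1 had 1.17, Mgarp 1.09, Hsd3b1 1.08 and Scarb1 1.07. The pooled values hid opposite directions among the granulosa-like clusters. In cluster 0, led by Pik3ip1, Itih2 and H19, 6 of 6 genes were higher (background 3.22%) and 0 lower (background 5.10%). Its Hsd3b1 was 558 CPM in PS-MP and 256 CPM in control, a ratio of 2.18 (2.13 to 2.24). In cluster 4, led by Agtr2 and Amh, 6 of 6 were higher (background 5.23%) and 0 lower (background 6.52%). Hsd3b1 there was 1015 CPM in PS-MP and 488 CPM in control, a ratio of 2.08 (2.02 to 2.14). The counts of clusters 0 and 4 include Cyp11a1, which lay under the level of macrophage or monocyte-like cells in both clusters and libraries. In cluster 4 of PS-MP it was 65.5 CPM, beside 182 CPM in those cells. Macrophage or monocyte-like cells had 6 of 6 genes higher as well (background 12.6%). Cluster 8 had 6 of 7 higher (background 9.84%) and 0 lower (background 10.7%), but several of its levels lay near those of macrophage or monocyte-like cells. Its Hsd3b1 was 257 CPM in PS-MP and 156 CPM in control, beside 224.8 and 125.5 CPM in those cells. Fdx1 was 105 and 65.5 CPM, beside 97.6 and 51.45 CPM, and Cyp11a1 and Mgarp lay under the macrophage level in both libraries. The mitotic cluster 2 had 3 of 6 higher (background 1.95%) and 0 lower (background 5.18%), among them Fdxr with 1.32.

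Cluster 1, the Inhba and Cyp19a1 cells with the most Hsd3b1 among granulosa-like cells, went the other way. There 0 of 6 genes were higher (background 5.85%) and 2 lower (background 9.58%), Fdx1 with a ratio of 0.798 (0.771 to 0.825) and Mgarp with 0.819 (0.792 to 0.847). Hsd3b1 had 3470 CPM in PS-MP and 4016 CPM in control, a ratio of 0.864 (0.856 to 0.873), and Cyp11a1 had 166 and 192 CPM, a ratio of 0.867 (0.828 to 0.908). Fdxr alone was above 1 in cluster 1, at 1.13 (1.09 to 1.18). Over the clusters, Fdxr was above 1 in 5 of 5, whereas Hsd3b1, Cyp11a1, Fdx1 and Mgarp were above 1 in 4 of 5. These are directions only. Fdxr in cluster 8 was 64.9 CPM in PS-MP and 62.2 CPM in control, beside 51.9 and 27.6 CPM in macrophage or monocyte-like cells. Cyp11a1 exceeded the macrophage level in cluster 1 of control alone. The difference between clusters has no test in a design of 2 libraries.

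In stromal fibroblast-like cells 5 of 7 genes were higher in PS-MP (background 4.36%) and 0 lower (background 5.75%). Cyp11a1 had 161 CPM in PS-MP and 69.3 CPM in control, a ratio of 2.32 (2.16 to 2.48). Star had a ratio of 1.82 (1.62 to 2.04), Mgarp 2.14 (1.85 to 2.47), Fdx1 1.55 and Fdxr 1.46. Scarb1 had 1.01 and Hsd3b1 0.912, which ran from 0.302 to 1.27 over the alternatives and was lowest with the macrophage level subtracted. The molecules were unevenly spread, and the top 1% of stromal cells held 37.2% of the Cyp11a1 molecules in PS-MP and 41.7% in control. Stromal cells with a UMI of the theca gene Cyp17a1, 82 in PS-MP and 123 in control, had 412 and 358 CPM of Cyp11a1. In the stromal cells without one, Cyp11a1 was 146 CPM in PS-MP and 44.5 CPM in control, Star 49.3 and 24.4 CPM, and Hsd3b1 220 and 197 CPM.

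**Figure D5:**
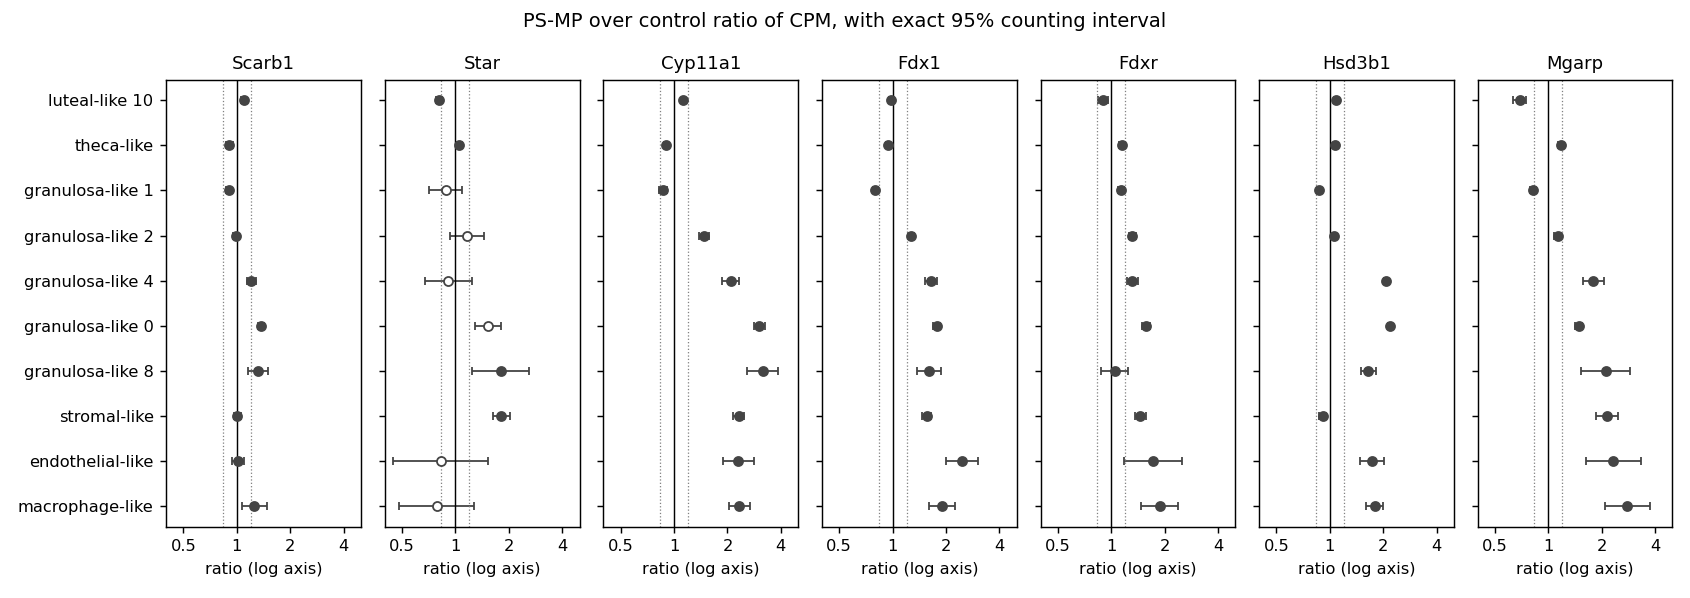
Ratio of PS-MP to control CPM (log axis) for each gene in 10 cell groups, with exact 95% intervals for counting error; open circles mark genes under 20 CPM in both libraries and dotted lines mark a fold of 1.2 either way. Theca-like cells lie near 1 for all 7 genes (0.896 to 1.17), granulosa-like clusters 0 and 4 lie above 1 for Hsd3b1 (2.18 and 2.08), and granulosa-like cluster 1 lies below 1 for it (0.864).

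RNA carried over between cells was gauged in cells that do not make steroids. Transcripts that these cells make themselves cannot be told apart from carried-over RNA, and would be subtracted with it below. Scarb1, for example, was higher in blood endothelial-like than in granulosa-like cells. In macrophage or monocyte-like cells 6 of 6 measured genes were higher in PS-MP (background 12.6%) and 0 lower (background 11.7%). Cyp11a1 there was 182 CPM in PS-MP and 78.1 CPM in control, a ratio of 2.34 (2.05 to 2.66). Blood endothelial-like cells had 5 of 6 higher (background 13.4%) and 0 lower (background 19.8%), with a Cyp11a1 ratio of 2.30 (1.88 to 2.81). These ratios lie beside the 2.32 of stromal cells and above the 1.44 of granulosa-like cells. The macrophage level of Cyp11a1 was 12.0% of the level over all cells in PS-MP and 13.7% in control. For source genes of other cells the same figure was 10.4% and 10.2% for the luteal gene Akr1c18, 10.2% and 7.48% for the theca gene Cyp17a1, and 15.7% and 10.9% for the granulosa gene Inha. Akr1c18 was far lower in cluster 5 than in cluster 10, so it says little about RNA carried over from cluster 5.

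The proportion of Star to Cyp11a1 in macrophage or monocyte-like cells was lower in PS-MP than in control, as it was over all cells. Star stood at 5.42 (3.43 to 8.17) for every 100 Cyp11a1 in PS-MP macrophage or monocyte-like cells and 16.0 (12.4 to 20.4) in control ones, beside 7.97 and 19.9 over all cells. Fdx1 against Cyp11a1 did not follow the library. Over all cells the ratio of PS-MP to control was larger for Fdx1 (3.53) than for Cyp11a1 (2.66). In macrophage or monocyte-like cells Fdx1 rose less than Cyp11a1. Fdx1 was 97.6 CPM there in PS-MP and 51.45 CPM in control, beside 182 and 78.1 CPM of Cyp11a1. Thinned to equal depth, 25.4% of PS-MP and 17.2% of control granulosa-like cells held a Cyp11a1 UMI, against 33.7% and 18.4% of macrophage or monocyte-like cells. Before thinning these shares were 47.4% and 33.0% of granulosa-like cells, with median UMI counts of 8961 and 9942.5, and 48.4% and 34.7% of macrophage or monocyte-like cells, with medians of 5470 and 6733. As a share of UMI counts, Cyp11a1 and Star in granulosa-like cells as a whole were therefore at or under the background level in both libraries. A background of a fixed number of molecules per cell would weigh less in the deeper granulosa-like cells, and this was not tested. By cluster, Cyp11a1 exceeded the macrophage level in cluster 1 of control alone (192 CPM), and Star in clusters 0 and 8 (20.2 CPM) of PS-MP alone, where cluster 0, at 11.9 CPM, lay inside the macrophage interval. Mgarp was under the macrophage level in 2 of 5 clusters of PS-MP, among them cluster 8 (29.4 CPM), and in cluster 8 of control. After the macrophage level was subtracted, granulosa-like Cyp11a1 and Star were at 0 in both. The subtraction was chosen after the values were seen. It works on CPM, so it would take too much from deeper cells if the background were a fixed number of molecules per cell. It left granulosa-like Hsd3b1 at 1293 CPM in PS-MP and 1285 CPM in control (1.01), Fdxr at 119 and 101 CPM (1.17) and Fdx1 at 86.3 and 105 CPM (0.819). It left Hsd3b1 at 334 and 130 CPM in cluster 0 (2.56) and at 790 and 363 CPM in cluster 4 (2.18). In stromal cells it left Star at 40.7 CPM in PS-MP and 15.3 CPM in control (2.66), Fdx1 at 126 and 92.4 CPM (1.36) and Fdxr at 55.4 and 45.8 CPM (1.21). Stromal Cyp11a1, at 161 and 69.3 CPM, lay under the macrophage level in both libraries, and stromal Mgarp, at 36.3 CPM, lay under it in PS-MP. Stromal Hsd3b1 was left at 54.6 CPM in PS-MP and 181 CPM in control (0.302). The part of carried-over RNA in the higher values of granulosa-like and stromal cells was not tested beyond these values.

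The wider pathway was read from 9 lists of 97 other genes, counted by the same fold of 1.2 and against the same backgrounds. In granulosa-like cells hardly any moved, where 1.36% of all genes were higher and 4.23% lower. Among electron donors and partners of P450 enzymes, 0 of 10 measured genes were higher and 1 lower, Me3, a mitochondrial malic enzyme, with 85.6 CPM in PS-MP and 106 CPM in control (0.806). Of the iron-sulfur assembly genes, which build the cluster that ferredoxin carries, 0 of 9 were higher or lower, with a median log2 ratio of 0.06 against -0.02 for all genes. Of the genes for cholesterol transfer to mitochondria, 0 of 10 were higher or lower (median log2 ratio 0.04). Of the other steroid enzymes, 1 of 8 was higher, Hsd17b1, which makes oestradiol from oestrone, with 488 CPM in PS-MP and 406 CPM in control. Aromatase, Cyp19a1, was the 1 lower, with 83.7 CPM in PS-MP and 171 CPM in control (0.488). By cluster, Cyp19a1 was lower in clusters 1 (0.380) and 2 (0.606), higher in cluster 4 (24.7 CPM in PS-MP and 17.4 CPM in control, 1.42) and under 20 CPM in clusters 0 and 8. The gonadotropin receptors Lhcgr (26.4 CPM in PS-MP, 0.527 of control) and Fshr (139 CPM in PS-MP and 175 CPM in control, 0.791) were the 2 of 7 signalling genes that were lower. Both, and Cyp19a1, also served as markers of the cell groups. None of 11 transcription regulators and none of 8 genes of mitochondrial movement passed the fold in the pooled class. Within cluster 0, however, the regulators Gata6 (1.33) and Cebpb (1.36) did, as did Gata4 (1.22) and Nr4a1 (1.21), beside a background of 3.22% higher. Within cluster 4, Gata4 (1.24) and Crem (1.27) did, beside a background of 5.23% higher.

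In theca-like cells 5 of 9 other steroid enzymes were lower (background 12.0%) and 1 higher (background 7.31%), with a median log2 ratio of -0.28 against -0.03 for all genes. Cyp17a1, which leads to androgens, had 2116 CPM in PS-MP and 2845 CPM in control (0.744), while Hsd3b1 had a ratio of 1.07 (1.06 to 1.08). Akr1c18, among the lower ones, was 2.22 CPM in PS-MP and 44.6 CPM in control theca-like cells. It is also a luteal source gene for carried-over RNA, and in stromal cells it was 1.75 and 7.98 CPM. The part of luteal cells or luteal RNA in these values was not tested. Lhcgr was 694 CPM in PS-MP and 987 CPM in control theca-like cells (0.703). Of the cholesterol transfer genes 2 of 11 were higher and 1 lower, and of the electron donors 0 of 9 were higher or lower. In cluster 10 of the luteal-like cells, 6 of 8 genes for cholesterol supply and storage were lower (background 23.1%) and 0 higher (background 18.4%), with a median log2 ratio of -0.37 against -0.03 for all genes. Soat1, which esterifies cholesterol for storage, had 797 CPM in PS-MP and 1031 CPM in control (0.773). Among the electron partners there, 2 of 9 were higher and 3 lower, shares near those same backgrounds. Among them cytochrome b5, Cyb5a, had 342 CPM in PS-MP and 829 CPM in control (0.413). Of the transcription regulators 2 of 12 were higher and 3 lower, again near the background of 18.4% and 23.1%, with Nr4a1 at 1069 and 584 CPM (1.83) and Nr5a2 at 172 and 358 CPM (0.479). Akr1c18 was 0.757 of control and Hsd17b7, a steroid and cholesterol enzyme, 1.39. In the split of cluster 10 by Hsd3b1, Akr1c18 was lower in PS-MP below the limit and higher in PS-MP at or above it. Hsd17b7 was higher in PS-MP on both sides. The share of cells below the limit differed between the libraries, so the pooled ratios are not changes of level within either part. These cluster 10 values rest on 129 PS-MP and 229 control cells that differed in depth.

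Across 26 points, the clusters of each library with at least 50 cells, Cyp11a1 and Fdx1 had a Pearson r of 0.965 on log2(CPM + 1), and Cyp11a1 and Star one of 0.932. The r of Cyp11a1 with Hsd3b1 was 0.787 and that of Star with Hsd3b1 0.661. The points share their library, so r describes likeness only and carries no p. Of all other genes Lhcgr (0.946) was nearest to Cyp11a1, the oxytocin receptor gene Oxtr (0.970) to Fdx1 and Plch2 (0.953) to Star. Me1, the cytosolic malic enzyme that makes NADPH, was nearest to Fdxr (0.942) and the next after Oxtr for Fdx1 (0.966). Cyp51, an enzyme of cholesterol synthesis, was nearest to Hsd3b1 (0.939), Slc25a30 to Scarb1 (0.884) and Gsg1l to Mgarp (0.945). Within 1 library the nearest gene was another in 12 of 14 cases, for Cyp11a1 Oxtr in PS-MP and Plch2 in control, while Gsg1l was nearest to Mgarp in both.

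Near copies took few molecules. Over all cells, the genes next of kin to Hsd3b1 were at 48 (PS-MP) and 34 (control) UMI counts for Hsd3b6 and 61 and 77 for Hsd3b8, against 262489 and 237110 for Hsd3b1. Fdx2, the other ferredoxin, had 3 and 1. Counts this low cannot tell an unexpressed gene from one whose reads were not assigned to it. Of the stretches of 50 bases in the Hsd3b1 transcript 5.58% also occur in another gene, and 0 of those in its last 500 bases do. The other 6 genes shared none. An exon of Cyp11a1 overlaps the gene model Gm17322 on the same strand by 145 bases in GENCODE vM21, so reads there could be given to either.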

How the data were processed

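The deposited files held raw UMI counts per gene and cell, 1 table per library, made by the authors from BD Rhapsody microbead libraries, a capture system that tags each cell and molecule. Per the submitters' processing notes the build was GRCm39 and Seurat was used; the aligner is not given in the sources used here. Cells with at least 500 genes and at most 25% mitochondrial counts were kept, and doublets called by scrublet at an expected rate of 0.05 were left out (358 in PS-MP and 315 in control). Clustering used scanpy 1.11.5 and leidenalg 0.10.2 on 2000 variable genes without the 7 genes, with 30 components, 15 neighbours, a resolution of 0.5 and seed 1. Clusters were named from marker lists. Counts were summed per cell group and library and given as CPM. Levels carry exact Poisson intervals, ratios exact conditional binomial intervals and shares Clopper-Pearson intervals, which cover counting error only. Cells are not replicates, so no p-value was computed. Ratios were tested on simulated data. Shares of cells with a UMI used cells thinned to 3500 UMI counts, and 0 cells were too shallow for this.

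The members, gene lists and rules were chosen with earlier results of these data known. Genes outside the 7 were named if they were markers or leading genes of a cluster, near copies of a member, source genes for carried-over RNA, among the 4 largest log2 ratios of a list in granulosa-like cells, among the 3 highest of a list in luteal-like cells, or among the 3 genes most alike to a member. The naming score, the subtraction of the macrophage level, the molecule proportions, the splits of cluster 10 by Hsd3b1 and of stromal cells by Cyp17a1, and the spread over single cells were chosen after seeing the data. In all, 20 planned and 2 added alternatives were listed. Promoter windows, with 5 of 7 genes matched, came from RefSeq on GRCm38.p6, and transcripts from GENCODE vM21. No coordinates were carried between builds. Python 3.11.15, numpy 2.4.6, scipy 1.17.1, pandas 2.3.3, anndata 0.12.19 and matplotlib 3.10.9 were used.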

Additional observations from a re-analysis of the deposited data

Results flagged for a closer look

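Star moved in opposite directions in different cell groups, with a ratio of PS-MP to control of 0.811 in luteal-like cluster 10 against 1.82 in stromal fibroblast-like cells. Mgarp did the same, with 0.689 in cluster 10 against 2.14 in stromal cells. Fdx1 differed between granulosa-like clusters, with 0.798 in cluster 1 against 1.77 in cluster 0. These differences between cell groups were not tested, since each library is 1 sample. Beside the stromal values, Mgarp in macrophage or monocyte-like cells had a ratio of 2.78 and Star one of 0.791 (0.478 to 1.26). Fdx1 in macrophage or monocyte-like cells was also higher in PS-MP, with 97.6 CPM against 51.45 CPM in control.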

How the results depend on the processing

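No paired analysis was possible because each group is 1 library. Of 728 values under the alternatives, 445 stayed within the limits set for change (such as the counting interval of a ratio, or 1.5 times a count), 280 moved beyond them, and 3 ratios that had passed a fold of 1.2 came out on the other side of 1. Ratios that had not passed it crossed 1 more often, among them Fdx1 in granulosa-like (0.665 to 1.36), theca-like (0.908 to 1.04) and luteal-like cells (0.747 to 1.02) and Hsd3b1 in stromal cells (0.302 to 1.27). Over all cells, leaving out the cluster with over 95% of its cells from 1 library reversed Cyp11a1 (0.9164), Fdx1 (0.9923) and Scarb1 (0.9874), and left 1 gene higher and 1 lower. In granulosa-like cells, where 2 genes were higher and 0 lower, 5 were higher with clusters weighted alike and 0 at a fold of 1.5. Subtracting the macrophage level left 0 higher and 1 lower there, and subtracting the mean of endothelial and macrophage cells left 1 higher and 1 lower. In stromal cells, 3 genes were higher with the macrophage level subtracted and 2 with the mean of both, with 1 lower in either case. In theca-like cells, 1 gene was higher with doublets kept, with division by the median ratio of all genes and at resolution 0.3, and 2 were higher at resolution 0.8, while 1 was lower with at most 10% mitochondrial counts and 1 with the mean of both cell types subtracted. In luteal-like clusters of both libraries 0 genes were lower at a fold of 1.5. The cause of these changes was not tested. Over the alternatives the granulosa-like ratio of Cyp11a1 ran from 1.23 to 1.91 and that of Fdxr from 1.17 to 1.36, the cluster 10 ratio of Star from 0.796 to 0.904, and the stromal ratio of Star from 1.49 to 2.66. No ratio could be had after subtraction for Cyp11a1 in granulosa-like cells and Mgarp in stromal cells, nor with both cell types subtracted for Scarb1 in either, nor with the macrophage level subtracted for Cyp11a1 in stromal cells. Subtraction of T or NK cells was not run, as no cluster took that name. Counts limit Star outside luteal-like, theca-like and stromal cells, where it was under 20 CPM in several groups.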

Other observations

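Within cluster 10, Hsd17b7 was lower in cells below 1000 CPM of Hsd3b1 than in the others, at 430 against 1805 CPM in PS-MP and 164 against 1484 CPM in control.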
